A study of Danio rerio with 18 samples.

Results

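Glutamate tRNAs are described here across 6 stages of early zebrafish development, the egg being the first and the late gastrula the last. They are all the nuclear-encoded entries of the tRNA count table that are named for glutamate, 127 of 2578, and they form 2 of the 47 anticodon families. tRNA-Glu-CUC had 73 entries and tRNA-Glu-UUC had 54, with anticodons written in RNA letters. An entry is a distinct mature sequence (an isodecoder), which can be encoded by several identical gene copies. Of the 127 entries, 126 were resolved to a single transcript, and 1 was a pair that could not be separated (tRNA-Glu-UUC-14/12). That pair held 22 to 154 counts per library, at most 0.0737% of the Glu counts, and was used in family sums only.

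The libraries came from wild-type zebrafish of the TLAB strain, a cross of the TL and AB lines, kept in standard housing. Unfertilized eggs were pressed from females anesthetized with tricaine. tRNA abundance was measured by mim-tRNAseq, a method that reads through modified bases of size-selected tRNA, in unfertilized, non-activated eggs (0 hpf, hours post-fertilization) and in whole embryos. The blastula stages sampled were the 256-cell stage at 2.5 hpf, the 1000-cell stage at 3 hpf and sphere at 4 hpf, and the gastrula stages were shield at 6 hpf and bud at 10 hpf. Each stage had 2 libraries, each from a pool of eggs or embryos, and the replicates were collected on different days. Charging was measured in separate libraries from sphere and bud embryos, 3 of each, after chemical treatment that shortens the 3′ end of tRNAs carrying no amino acid. Nuclear tRNA counts ranged from 791432 in egg replicate 1 to 8525792 in 256-cell replicate 1, and Glu counts from 44662 to 432488. Reads without molecular identifiers are not independent molecules. Intervals on shares treat reads as independent, so the intervals cover counting error only and can be too narrow. Each library is a bulk sample of whole eggs or embryos, in which a change in the cells that make a tRNA and a change in its amount per cell cannot be told apart. Shares and normalized counts are relative to the other tRNAs of a library. A rise or fall given below is of this kind, and amounts per egg or embryo are not known.

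Glutamate is encoded by GAA and GAG. The CUC anticodon reads GAG, while UUC reads GAA and, through wobble pairing at its modified first base, also GAG. In animals both are charged by the bifunctional enzyme EPRS1, which also charges the proline tRNAs. tRNA genes are transcribed by RNA polymerase III, and vertebrate genomes carry many copies of them, often in arrays.

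The CUC anticodon made up most of the Glu pool at every stage. It held 83.5% and 86.0% of the Glu counts in the egg libraries, 85.4% and 86.9% at the 256-cell stage, 84.8% and 87.7% at the 1000-cell stage, 86.1% and 87.8% at sphere, 85.9% and 87.9% at shield, and 90.1% and 90.8% at bud. Both bud libraries were above all 10 others, and shield overlapped with the earlier stages. Replicate 2 was above replicate 1 at all 6 stages, by more than the counting error of independent reads: in eggs, the Wilson 95% intervals were 83.2 to 83.8% and 85.7 to 86.2%. Expressed as a ratio, CUC outnumbered UUC 5.06-fold in egg replicate 1 and 9.91-fold in bud replicate 2.

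Compared with the earlier stages, the gastrula stages had a larger Glu share of all nuclear tRNA counts, and this lay in the CUC family. Glu-CUC made up 4.71% and 4.60% of nuclear counts in eggs, 4.33% and 4.03% at 256-cell, 4.40% and 4.07% at 1000-cell, 5.07% and 4.65% at sphere, 5.52% and 5.58% at shield, and 5.46% and 6.24% at bud. All 4 gastrula libraries were above the 8 earlier ones. Glu-UUC stayed below 1% throughout, at 0.931% and 0.752% in eggs, 0.743% and 0.607% at 256-cell, 0.792% and 0.572% at 1000-cell, 0.820% and 0.649% at sphere, 0.903% and 0.768% at shield, and 0.602% and 0.630% at bud. Here the groups overlapped, and the bud libraries were among the lowest.

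The 4 gastrula libraries were tested against the 8 earlier ones with a two-sided exact permutation test, with Benjamini-Hochberg adjustment over 4 measures. The test treated the 12 libraries as exchangeable, although each stage gave 2 of them. Its p-values therefore concern libraries, and no test was run with the stage as the unit. The Glu share of nuclear counts was 6.43% ± 0.334 (SD, n = 4) against 5.21% ± 0.439 (n = 8), a difference of 1.21 percentage points (exact p = 0.00404, adjusted p = 0.00808). The Glu-CUC share was 5.70% ± 0.364 against 4.48% ± 0.347 (difference 1.22 points, exact p = 0.00404, adjusted p = 0.00808), and 0.00404 is the smallest p that this design can give. For Glu-UUC the means were 0.726% ± 0.139 and 0.733% ± 0.119 (exact permutation p = 0.917), a difference far below the spread between libraries. The gastrula stages lay apart here, with means of 0.836% at shield and 0.616% at bud, so the pooled test does not describe either stage alone. The CUC percent of Glu counts was 88.7 ± 2.22 against 86.0 ± 1.46, higher by 2.69 points (exact p = 0.0364, adjusted p = 0.0485). This last call was weak: it was lost in 8 of the 12 fits that left out 1 library, with differences of 1.97 (without bud replicate 2) to 3.61 points, and without the egg libraries (2.27 points, adjusted p = 0.102). The bud libraries alone were 4.46 points above the earlier stages.

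**Figure D1:**
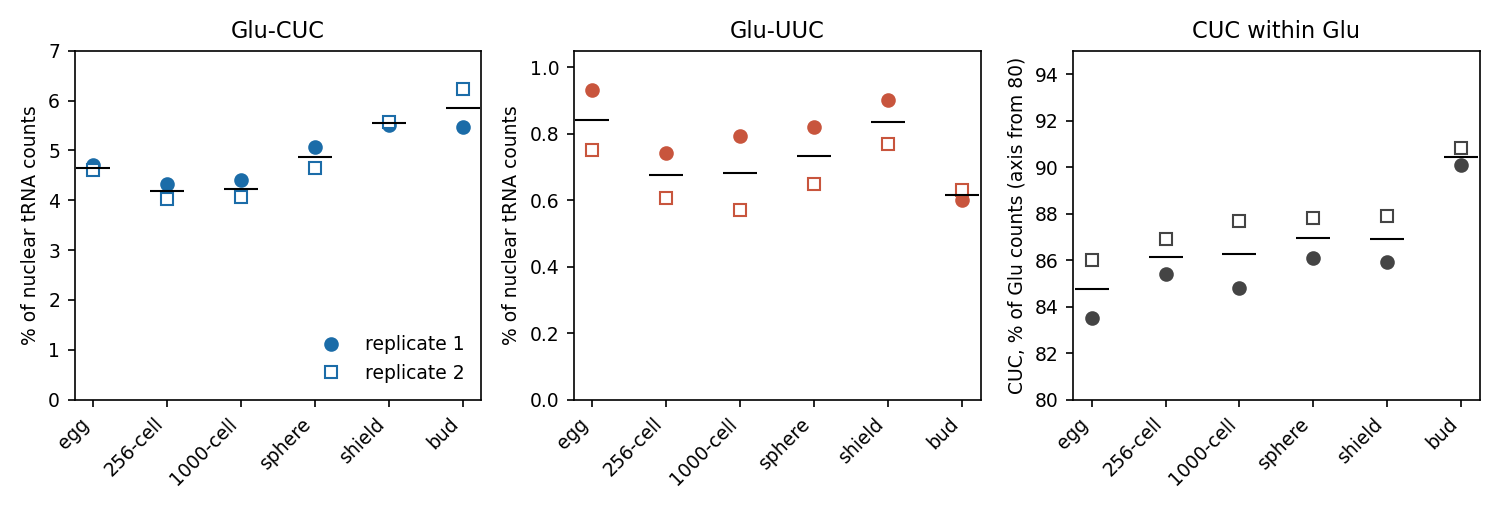
Share of the nuclear tRNA counts held by Glu-CUC (left) and Glu-UUC (middle), and the CUC percent of the Glu counts (right, axis from 80%), by stage. Each symbol is 1 library (filled, replicate 1; open, replicate 2) and each bar the mean of a stage; CUC rises to 5.46% and 6.24% at bud, while UUC is at 0.602% and 0.630% there.

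Each family was then compared between single stages with DESeq2, in which all 12 libraries shared the estimate of spread and p-values were adjusted over the 47 families. Glu-CUC passed the threshold (adjusted p of at most 0.05) in the bud embryos only: it rose against egg by 0.40 ± 0.11 on the log2 scale (SE; 1.32-fold, adjusted p = 0.00137) and against sphere by 0.35 ± 0.11 (1.27-fold, adjusted p = 0.00659). Among all families, 36.2% were called in the first comparison and 29.8% in the second. Against egg, its log2 change was -0.13 at 256-cell (2.13% of families called), -0.13 at 1000-cell (0% called), 0.05 at sphere (4.26% called) and 0.26 at shield (adjusted p = 0.0816; 17.0% called). The step from sphere to shield was 0.21 (2.13% of families called) and that from shield to bud 0.14 (10.6% called). Neither passed the test, so the rise could not be assigned to one interval. The call against egg was lost without bud replicate 2 (0.30, DESeq2 adjusted p = 0.0512), and that against sphere was lost without bud replicate 2 (0.25), without sphere replicate 2 (0.31) and with edgeR (0.32).

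Glu-UUC passed the test in none of these 8 comparisons. Its log2 change against egg was -0.30 at 256-cell, -0.30 at 1000-cell, -0.21 at sphere, -0.00 at shield and -0.38 ± 0.20 at bud (DESeq2 adjusted p = 0.123). For this last value the 95% interval ran from -0.76 to 0.01. It passed the threshold in the fit limited to the 4 egg and bud libraries (-0.43) and when only single transcripts were summed (-0.43).

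Within the families, counts were concentrated in 3 transcripts. tRNA-Glu-CUC-1, encoded by 130 gene copies, held on average 47.0% of the Glu counts, and tRNA-Glu-CUC-17, with 1 copy, held 26.3%. tRNA-Glu-UUC-2, with 87 copies, held 7.89%. All other entries together accounted for 13.5 to 22.3% per library, led by tRNA-Glu-CUC-21 (3.62%) and tRNA-Glu-UUC-1 (1.56%).

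The make-up of the pool differed most at bud. tRNA-Glu-CUC-1 held between 42.0% and 49.1% of the Glu counts in the 10 libraries up to shield, and 57.0% and 56.3% in the bud libraries. As a share of all nuclear counts, it was at 1.95 to 3.15% up to shield and at 3.46% and 3.87% at bud. tRNA-Glu-CUC-17 stayed between 1.33% and 1.64% of nuclear counts in all 12 libraries. The ratio of the first to the second was thus 1.41 to 1.93 before gastrulation and 1.89 to 2.52 in the gastrula libraries. In the UUC family, the 53 entries other than tRNA-Glu-UUC-2 summed to 0.268 to 0.353% of nuclear counts up to shield. At bud they summed to 0.185% and 0.201%, below every other library. The other 71 CUC entries summed to 0.633% and 0.728% at bud, which overlapped with the 0.711 to 0.885% of the earlier libraries.

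**Figure D2:**
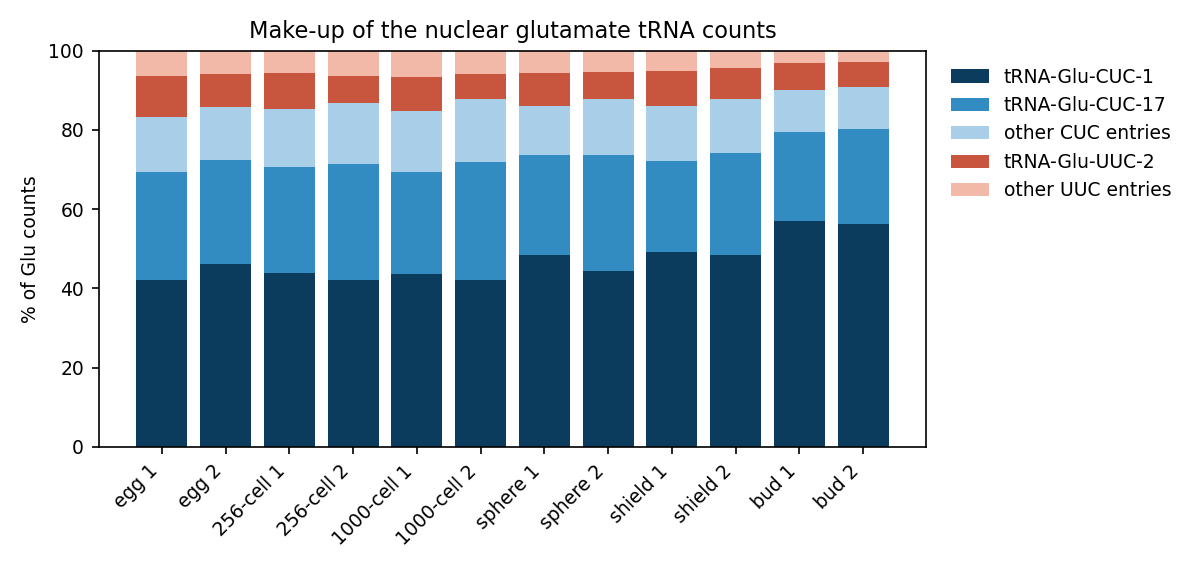
Make-up of the nuclear Glu counts in each of the 12 libraries, in percent, with the 3 leading transcripts apart and all other CUC or UUC entries summed. tRNA-Glu-CUC-1 fills 57.0% and 56.3% of the bud bars against 42.0 to 49.1% in the other bars, and the sum of the minor UUC entries narrows to 3.05% and 2.92% at bud.

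Gene copy number ranked the major transcripts differently from their counts. The reference lists 230 gene copies for CUC and 192 for UUC, so CUC had 54.5% of the Glu gene copies. Within the families, tRNA-Glu-CUC-1 had 56.5% of the CUC copies and tRNA-Glu-UUC-2 had 45.3% of the UUC copies, while 55 CUC and 33 UUC entries had 1 copy each. Per gene copy, tRNA-Glu-CUC-17 held 1.46% of nuclear counts, compared with 0.0205% for tRNA-Glu-CUC-1 and 0.00510% for tRNA-Glu-UUC-2. It was thus 71.3-fold and 287-fold above them per copy. Such values divide by all listed copies, and which of these were transcribed was not measured here. Among the other detected 1-copy transcripts the levels were far lower, with medians of 0.00783% in the CUC family (21 such transcripts) and 0.00701% in the UUC family (8 such transcripts). Isodecoders of 1 family differ at few positions, and their reads were separated by mismatches to a shared parent sequence, so the split between tRNA-Glu-CUC-1 and tRNA-Glu-CUC-17 rests on that assignment.

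Across detected transcripts, copy number and mean level were related with a Spearman rho of 0.504 in the CUC family (34 transcripts) and 0.652 in the UUC family (18 transcripts). These are descriptions across transcripts measured in the same libraries. They leave out the 74 single transcripts below the detection level. Of the detected ones, 22 CUC and 8 UUC transcripts tie at 1 copy. By mean level, Glu-CUC ranked 3 of 47 families, at 4.89% of nuclear counts, and Glu-UUC ranked 37, at 0.731%. Per gene copy they ranked 13 and 40 of the 46 families with a complete copy number.

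**Figure D3:**
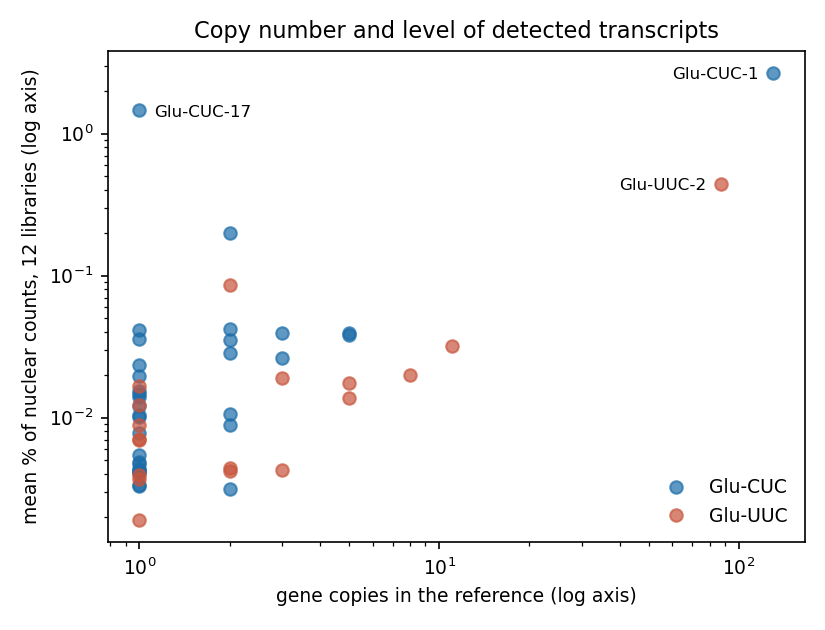
Gene copies in the reference (x, log axis) against the mean percent of nuclear counts over 12 libraries (y, log axis) for the 52 detected Glu transcripts, 1 point each. tRNA-Glu-CUC-17 stands at 1 copy and 1.46%, near the level of tRNA-Glu-CUC-1 (2.67%) with its 130 copies and above tRNA-Glu-UUC-2 (0.443%) with 87.

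Detection was set at 0.005% of a library's nuclear counts, to be met in any 1 library. A transcript near that level could thus pass through the libraries in which it was high. This bears on ranges and directions of change. The level was met by 52 of the 126 single Glu transcripts, 34 CUC and 18 UUC, out of 607 detected over all tRNAs. They held at least 98.9% of the CUC counts and 96.0% of the UUC counts of each library, and 318 of the 422 Glu gene copies. The other 74 stayed below that level in all libraries, and 1 of them, a CUC transcript, had no counts at all. Replicates of the detected Glu transcripts differed by a median of 0.323 on the log2 scale, against 0.314 for all detected transcripts.

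Before gastrulation no detected Glu transcript was called against egg. With DESeq2, p-values adjusted over all single transcripts left 0 of 52 at 256-cell, 1000-cell and sphere, where 0.494%, 0.494% and 0.824% of all 607 detected transcripts were called. At an unadjusted p under 0.05 there were 5, 5 and 3, without a share over all transcripts to set them against. With edgeR, 0 Glu transcripts were called in each, and over all detected transcripts 1, 0 and 1 were called higher and 0 lower. At shield, 5 were called against egg, 1 higher and 4 lower (9.62%, against 15.0% of all detected transcripts, 8.07% higher and 6.92% lower). There edgeR called 0 Glu transcripts, and 29 higher and 12 lower over all. At bud, 11 were called against egg (21.2%, against 29.3% of all) and edgeR called 8, with 81 higher and 49 lower over all.

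The bud calls went in both directions in the CUC family and mainly down in the UUC family. Of the 11, 4 were higher (16.8% of all detected transcripts were called higher) and 7 lower (12.5% were called lower). In the CUC family 3 rose and 3 fell of 34, with a median log2 change of 0.44. In the UUC family 1 rose and 4 fell of 18, with a median of -0.57. The median over all 607 was -0.00. In each of the 11, both bud libraries lay outside the range of the egg libraries. The 11 were called on these same libraries, so this separation adds no support of its own. With total counts in place of median-of-ratios size factors, the median over all 607 at bud shifted to -0.37, and 1 Glu transcript was called higher and 13 lower, 8 of them shared with the 11. Over all detected transcripts, 60 were then called higher and 147 lower.

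**Figure D4:**
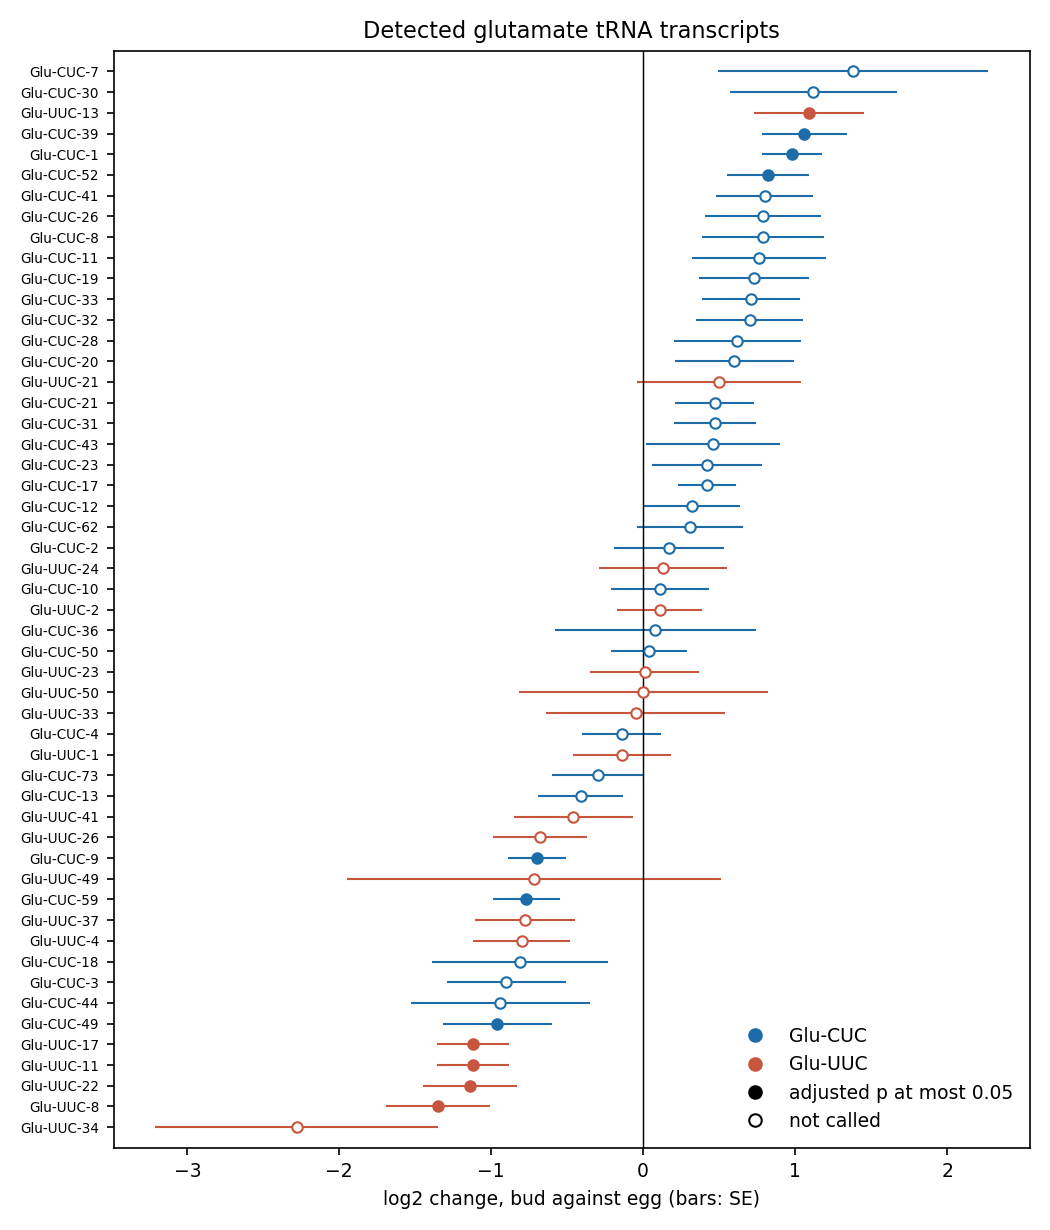
Log2 change from egg to bud of the 52 detected Glu transcripts, with its standard error, ordered by size; blue, CUC; orange, UUC; filled, adjusted p of at most 0.05 with DESeq2. CUC transcripts run from -0.96 to 1.38 with 25 of 34 above 0, and UUC transcripts from -2.28 to 1.09 with 13 of 18 below 0. Detection in any 1 library was enough, so a transcript near that level could pass through the stage in which it was high. The lowest, tRNA-Glu-UUC-34, had 202 and 14.8 normalized counts in eggs, and 19.5 and 24.4 at bud. The highest, tRNA-Glu-CUC-7, had 28.9 and 56.3 in eggs, and 173 and 53.8 at bud. The 0 line depends on the median-of-ratios scaling: on total counts the median over all 607 detected transcripts was -0.37, against -0.00 here.

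Among the transcripts that rose, tRNA-Glu-CUC-1 carried nearly all of the counts. Its normalized counts were 60553 and 67018 in eggs, 57769 and 52513 at 256-cell, 54410 and 51154 at 1000-cell, 76139 and 60223 at sphere, 77518 and 80405 at shield, and 117124 and 134213 at bud. The bud libraries were above all others. The rise from egg to bud was 0.98 ± 0.20 on the log2 scale (SE; 1.97-fold, DESeq2 adjusted p = 2.18e-05), and it was called under all 10 alternatives, with 0.60 on total counts as the lowest value. Transcripts and families were scaled by separate size factors, so 1.97-fold and the 1.32-fold of the Glu-CUC family are not on one scale. On total counts, a scale common to both, the Glu-CUC family rose by 0.33. From sphere to bud tRNA-Glu-CUC-1 rose by 0.88 ± 0.20 (adjusted p = 0.000198), a call that was lost without bud replicate 2 (0.80) and on total counts (0.49). It was also the 1 Glu transcript called between shield and bud (0.67 ± 0.20, adjusted p = 0.0113; 10.9% of all detected transcripts were called), which did not pass on total counts (0.23, adjusted p = 0.446), with only the 4 libraries in the fit, or when any 1 of the 4 was left out.

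tRNA-Glu-CUC-17 and tRNA-Glu-UUC-2, the other major transcripts, were not called. The normalized counts of tRNA-Glu-CUC-17 were 39167 and 38146 in eggs, 35347 and 36900 at 256-cell, 32112 and 36387 at 1000-cell, 39440 and 39900 at sphere, 36495 and 42497 at shield, and 46399 and 56942 at bud. Its log2 change from egg to bud was 0.42 ± 0.19 (DESeq2 adjusted p = 0.120), or 0.03 on total counts. For tRNA-Glu-UUC-2 they were 14675 and 12143 in eggs, 11743 and 8679 at 256-cell, 10581 and 7967 at 1000-cell, 13167 and 9257 at sphere, 14223 and 13045 at shield, and 14134 and 14867 at bud. Egg and bud overlapped here, and the log2 change was 0.11 ± 0.28 (adjusted p = 0.865). As a share of nuclear counts it was 0.578% and 0.447% in eggs and 0.417% and 0.429% at bud, and on total counts the log2 change was -0.28. The Glu-UUC family changed by -0.45 on that scale.

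The UUC transcripts that fell relative to the other tRNAs were minor members with 1 to 5 gene copies. tRNA-Glu-UUC-11 (5 copies) had normalized counts of 591 and 566 in eggs, 516 and 440 at 256-cell, 494 and 442 at 1000-cell, 637 and 499 at sphere, 456 and 378 at shield, and 256 and 274 at bud. Bud was below all other libraries, with a log2 change of -1.12 ± 0.24 from egg (DESeq2 adjusted p = 8.04e-05) and -1.10 ± 0.24 from sphere (adjusted p = 9.63e-05), both called under all 10 alternatives. tRNA-Glu-UUC-17 (3 copies) had 751 and 670 in eggs, 563 and 508 at 256-cell, 515 and 454 at 1000-cell, 606 and 515 at sphere, 453 and 348 at shield, and 332 and 319 at bud. Its egg libraries were the highest of all. It was already called at shield (-0.82 ± 0.24), but this call was lost with edgeR (-0.84) and with only the 4 libraries in the fit (-0.81). It was also lost without egg replicate 1 (-0.75) or shield replicate 2 (-0.66). At bud the change of tRNA-Glu-UUC-17 from egg was -1.12 ± 0.24 (DESeq2 adjusted p = 5.46e-05), called under all 10 alternatives.

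tRNA-Glu-UUC-8 and tRNA-Glu-UUC-22 fell by a like amount. tRNA-Glu-UUC-8 (1 copy) had 279 and 271 normalized counts in eggs, 206 and 170 at 256-cell, 262 and 157 at 1000-cell, 210 and 199 at sphere, 122 and 155 at shield, and 93.0 and 121 at bud, a change of -1.35 ± 0.34 from egg to bud (DESeq2 adjusted p = 0.000899). tRNA-Glu-UUC-22 (5 copies) had 526 and 463 in eggs, 352 and 417 at 256-cell, 292 and 457 at 1000-cell, 412 and 460 at sphere, 234 and 314 at shield, and 196 and 251 at bud, a change of -1.14 ± 0.31 (adjusted p = 0.00305). In both, the bud libraries were below both egg libraries, and the stages between them were intermediate. Against egg at bud, the call of tRNA-Glu-UUC-8 was lost without bud replicate 1, and that of tRNA-Glu-UUC-22 without bud replicate 1 or egg replicate 1.

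One UUC transcript differed in the other direction. tRNA-Glu-UUC-13 (1 copy) had 311 and 168 normalized counts in eggs, 433 and 522 at 256-cell, 379 and 475 at 1000-cell, 499 and 581 at sphere, 423 and 595 at shield, and 429 and 572 at bud. Every embryo library was above both egg libraries, but the egg libraries differed from each other by more than the higher of them differed from the lowest embryo library. The change was called at shield (1.11 ± 0.36, DESeq2 adjusted p = 0.0317) and at bud (1.09 ± 0.36, adjusted p = 0.0198). No call was made at 256-cell, 1000-cell or sphere. Both calls were lost with edgeR, with only the 4 libraries compared and without egg replicate 2. Each was also lost without either replicate of its own stage, and the bud call was lost on total counts (0.69).

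Smaller CUC transcripts moved in both directions. tRNA-Glu-CUC-39 (1 copy) had normalized counts of 238 and 241 in eggs, 184 to 298 in the blastula libraries, 314 and 343 at shield, and 462 and 535 at bud (1.06 ± 0.28 from egg to bud, DESeq2 adjusted p = 0.00188). tRNA-Glu-CUC-52 (1 copy) had 327 and 392 in eggs, 324 to 407 in the blastula libraries, 492 and 428 at shield, and 545 and 730 at bud (0.82 ± 0.27, adjusted p = 0.0173). For both, the gastrula libraries were above all earlier ones, but the bud calls were lost on total counts (0.68 and 0.44) and without bud replicate 2.

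By contrast, tRNA-Glu-CUC-9 and tRNA-Glu-CUC-59 were lower from shield onward. tRNA-Glu-CUC-9 (2 copies) had 1274 and 1084 normalized counts in eggs, 967 and 977 at 256-cell, 904 and 1039 at 1000-cell, 1115 and 1098 at sphere, 706 and 758 at shield, and 692 and 754 at bud. tRNA-Glu-CUC-59 (1 copy) had 1390 and 1404 in eggs, 1107 and 1032 at 256-cell, 1164 and 1149 at 1000-cell, 1477 and 1200 at sphere, 858 and 874 at shield, and 712 and 919 at bud. In both, all 4 gastrula libraries were below the 8 earlier ones. With DESeq2, tRNA-Glu-CUC-9 changed from egg by -0.68 ± 0.19 at shield (adjusted p = 0.00856) and -0.70 ± 0.19 at bud (adjusted p = 0.00299), and tRNA-Glu-CUC-59 by -0.69 ± 0.22 (adjusted p = 0.0240) and -0.77 ± 0.22 (adjusted p = 0.00366). Each of these 4 calls was lost with TMM factors and without egg replicate 1.

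Sphere served as the reference for the remaining calls. Between sphere and shield, 3 Glu transcripts were called (5.77%, against 5.11% of all detected), while edgeR called 0 over all detected transcripts. Of the 3, tRNA-Glu-CUC-9 and tRNA-Glu-CUC-59 fell, and tRNA-Glu-CUC-21 rose by 0.83 ± 0.25 (DESeq2 adjusted p = 0.0348). tRNA-Glu-CUC-21 (2 copies), however, had 3217 and 4067 normalized counts at sphere against 5288 to 6659 at the 256-cell and 1000-cell stages, and 3909 and 4561 in eggs. Its level at shield, 7295 and 5620, was thus close to that of the early blastula. Each of the 3 calls was lost when any 1 of the 4 libraries was left out. Adjusted p-values were missing for 17 of the 52 in this comparison, through the filter of DESeq2 on low means. Those 17 could not be called but are counted in the 5.77%. The number missing over all detected transcripts is not given, so 5.77% and 5.11% cannot be compared closely.

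Between sphere and bud, 12 Glu transcripts were called (23.1%, against 18.8% of all detected), 5 higher (13.0% of all) and 7 lower (5.77% of all). These counts depended on single libraries: without sphere replicate 1, sphere replicate 2, bud replicate 1 or bud replicate 2, the 12 became 5, 4, 5 and 3, and edgeR called 3. Over all detected transcripts, edgeR called 57 higher and 8 lower. The 5 that rose were all CUC: tRNA-Glu-CUC-1, tRNA-Glu-CUC-39 and tRNA-Glu-CUC-52 as above, tRNA-Glu-CUC-32 (88.5 and 98.6 normalized counts at sphere, 169 and 231 at bud) and tRNA-Glu-CUC-41 (169 and 97.3 at sphere, 238 and 250 at bud). Of those that fell, tRNA-Glu-CUC-49 (1 copy) went from 154 and 132 at sphere to 85.4 and 88.5 at shield and 50.8 and 66.0 at bud, which is -1.29 ± 0.35 on the log2 scale from sphere to bud (adjusted p = 0.00292 with DESeq2). The others were the 4 UUC transcripts described above, tRNA-Glu-CUC-9 and tRNA-Glu-CUC-59. On total counts none of the 5 rises passed, and 11 Glu transcripts were called lower, 7 of them shared with the 12. Over all detected transcripts, 51 were called higher and 126 lower with that scaling.

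The other 36 detected Glu transcripts had 1 to 11 gene copies, held 0.00190 to 0.0857% of nuclear counts on average, and changed by -2.28 to 1.38 on the log2 scale from egg to bud, with no call in any comparison. Among them, tRNA-Glu-UUC-49 (11 copies) stood out for its replicates, and was singled out after its values were seen. Its normalized counts were 1399 and 1317 in eggs, 1148 and 169 at 256-cell, 1117 and 208 at 1000-cell, 1234 and 144 at sphere, 1284 and 530 at shield, and 1021 and 632 at bud. Replicate 1 was higher at every stage, and 8.51-fold higher at sphere. tRNA-Glu-UUC-34, at the low end of the egg-to-bud changes, likewise differed 13.3-fold between the egg libraries.

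CUC to UUC was compared with the other amino acids whose codons in a split box are read by 1 anticodon starting with C and 1 starting with U. The C-starting anticodon held 88.7 ± 2.22% of the Glu counts in the gastrula libraries (SD, n = 4), against 24.7 ± 4.83% for Lys, 61.5 ± 2.71% for Gln, 43.5 ± 5.60% for Arg (CCU and UCU) and 33.9 ± 3.05% for Leu (CAA and UAA). Its share of gene copies was 54.5% for Glu, close to the 56.0% for Lys. The C-starting share was higher in gastrula than earlier libraries on average for all 5 (Lys 20.5 ± 3.79%, Gln 57.9 ± 1.91%, Arg 39.7 ± 4.52% and Leu 32.1 ± 3.46% in the earlier stages). The 2 groups of libraries overlapped in each, and for Leu the gastrula range of 31.9 to 38.4% lay within the earlier range of 27.8 to 39.3%. A test of whether the log2 ratio changed more for Glu, added after the values were seen, gave differences of 0.0121 against Lys, 0.150 against Gln, 0.139 against Arg and 0.245 against Leu (two-sided exact permutation tests over 12 libraries, p adjusted over 4 pairs = 0.974, 0.469, 0.684 and 0.501). The gastrula change was therefore not shown to be particular to glutamate.

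Charging of both Glu families was high and did not differ detectably between sphere and bud. Glu-CUC was charged to 86.0%, 90.3% and 87.6% at sphere and to 85.5%, 90.4% and 85.3% at bud. Glu-UUC was charged to 86.5%, 91.5% and 89.8% at sphere and to 82.8%, 90.8% and 85.7% at bud. In both families the 2 stages overlapped, and replicate 2 was the highest of its stage. The means were 87.9% ± 2.19 and 87.1% ± 2.90 for CUC (SD, n = 3, difference -0.869 points, exact permutation p = 0.600). For UUC they were 89.3% ± 2.51 and 86.4% ± 4.06 (n = 3, difference -2.85 points, exact permutation p = 0.400). The smallest p that 3 against 3 libraries can give is 0.10, so no difference could have passed the threshold. Read depth behind these fractions is unknown, since the table holds no counts. For CUC the difference changed sign without sphere replicate 2 (0.300) or bud replicate 3 (0.0337). For UUC it ran from -5.04 without bud replicate 2 to -1.03 without bud replicate 1.

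Relative to the 46 families with charging values, the mean charging of both Glu families was below the median at both stages. Glu-CUC ranked 32 at sphere and 35 at bud from the most charged, and Glu-UUC ranked 28 and 38. In single libraries Glu-UUC ranked from 20 (sphere replicate 2, at 91.5% against a median of 90.9%) to 38. The proline families, which share their synthetase with glutamate, had mean charging of 83.7% (AGG), 88.1% (CGG) and 85.9% (UGG) at sphere and 83.9%, 88.0% and 86.5% at bud. At sphere the 3 Pro-AGG libraries (83.0 to 84.3%) were below all Glu libraries (86.0 to 91.5%), while the values of the other Pro families overlapped with them. The differences of the 3 Pro families between stages were 0.174, -0.0564 and 0.634 points.

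**Figure D5:**
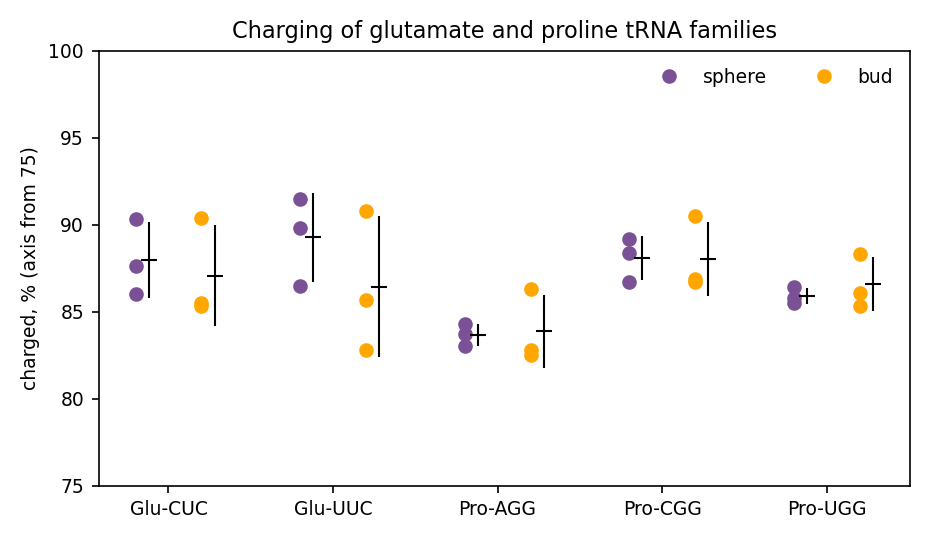
Charged percent (axis from 75%) of the 2 Glu families and the 3 Pro families, in 3 sphere and 3 bud libraries, 1 point each, with the mean and SD beside them. The stages overlap in every family, for example 86.0 to 90.3% at sphere and 85.3 to 90.4% at bud for Glu-CUC.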

How the data were processed

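mim-tRNAseq was performed by the authors on 12 abundance and 6 charging libraries. They trimmed reads with cutadapt 3.5, aligned them to a GRCz11 tRNA reference clustered by sequence identity, and reassigned reads to single transcripts by mismatches. The deposited table holds raw read counts per transcript, with the authors' gene copy number. The deposited charging table holds the charged fraction per anticodon family, printed here as percent. All per-sample columns were mapped (0 left out), and 22 mitochondrial entries were not used. One spreadsheet-altered copy number left a family (Asn-GUU) out of the per-copy ranks.

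Counts were summed per family (47) or taken for the 2505 single transcripts and tested with DESeq2 1.42.0 (R 4.3.3), stage as the term, median-of-ratios factors and Benjamini-Hochberg adjustment. A call is an adjusted p of at most 0.05. edgeR 4.0.16, TMM and total-count scaling, a replicate block, other filters, and leaving out each library were alternatives. Simulated 2-fold changes in 200 of 2505 transcripts (bud against egg) were recovered in 82.0% of cases, with 0.983% false calls. The simulation gave every transcript a dispersion of 0.03, with as many rises as falls, so its rates need not hold for these libraries. Shares and charging were compared by exact permutation tests (scipy 1.17.1). Named transcripts were those called in any of 8 contrasts or holding 5% of Glu counts. Replicate libraries were compared and none repeated another. Members and lists were chosen with earlier results of these data known. tRNA sequences and gene positions were not used here.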

Additional observations from a re-analysis of the deposited data

Results flagged for a closer look

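The share of nuclear tRNA counts held by Glu-CUC was 6.24% in bud replicate 2, against 5.46% to 5.58% in the other 3 gastrula libraries. The gap to the nearest of them was larger, relative to the range of the 4, than Dixon's critical value at the 95% level, which chance alone exceeds in a small share of groups. The Glu share of nuclear counts in that library was 6.87%. Without it, the difference between gastrula and earlier stages kept its direction and call.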

How the results depend on the processing

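Each stage had 2 libraries, and the transcript calls depended on them. Leaving out 1 library at a time moved the number of Glu transcripts called against egg to 0 to 2 at 256-cell, 0 to 2 at 1000-cell, 0 to 2 at sphere, 0 to 7 at shield and 5 to 12 at bud. It was 0 in each case between sphere and shield and between shield and bud, and 3 to 5 between sphere and bud. With only detected transcripts in the fit, 1, 2 and 1 were called against egg at 256-cell, 1000-cell and sphere, and 2 between shield and bud. TMM factors left 2 at shield against egg, with 61 higher and 25 lower over all 607 detected transcripts. They left 1 at shield against sphere, with 21 higher and 0 lower over all. Total counts gave 1 at shield against sphere (20 higher and 5 lower over all) and 3 at bud against shield (41 higher and 43 lower over all). The latter 3 were all lower, whereas the 1 call with median-of-ratios factors was higher, and no call was shared. edgeR gave 0 for shield against egg and against sphere, and 3 for bud against sphere. With only the 4 libraries compared, the counts were 0 for shield against egg, shield against sphere and bud against shield, and 6 for bud against egg. Among transcripts over 0.05% of nuclear counts, 2, 3 and 3 were called at shield against egg, bud against egg and bud against sphere. Some of these fits held fewer samples or transcripts, and the cause of the moves was not tested. Counts over all transcripts are not given for fits without 1 library, with only 4 libraries or with only detected transcripts. They are also not given for the 0.05% level. Whether the moves in those settings were particular to Glu was not tested.

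For the families, Glu-CUC at shield against egg was called when only single transcripts were summed (0.25). At sphere against egg it turned to -0.00 with only 4 libraries, and between sphere and bud the call was lost with edgeR (0.32). Leaving out a library gave 0.30 to 0.51 at bud against egg and 0.25 to 0.45 at bud against sphere. Glu-UUC was called at bud against egg with only 4 libraries (-0.43) and with only single transcripts (-0.43), and at bud against shield with only 4 libraries (-0.39). Its change at shield against egg, near 0, ran from -0.16 to 0.16. tRNA-Glu-UUC-2 at bud against egg turned to -0.28 on total counts and ran from -0.01 (without egg replicate 2) to 0.26 without 1 library.

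The higher CUC percent of Glu counts in gastrula libraries was not called with single transcripts only (2.67 points), without the egg libraries (2.27) or for the bud libraries alone (4.46), and ran from 1.97 to 3.61 without 1 library. The bud libraries alone were also not called for the Glu share (1.25 points) and the Glu-CUC share (1.37 points), both with an adjusted p of 0.0593 by the exact permutation test. For these shares and the CUC percent, the exact p before adjustment was 0.0444, the smallest that 2 bud against 8 earlier libraries can give. After adjustment it could pass only if all 4 measures reached it, so these lost calls do not speak against the differences. The Glu-UUC share, -0.00739 points, turned to 0.0287 without the egg libraries and ran from -0.0666 to 0.0339 without 1 library. The CUC charging difference ran from -2.54 to 0.300 points without 1 library, and the UUC difference from -5.04 to -1.03.

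The labels do not say whether replicate numbers pair the libraries. Over the 15 pairs of stages, replicate deviations correlated by -0.169 to 0.859, and same-numbered charging libraries by -0.160, 0.320 and -0.360. Among the pairs of stages, only 256-cell with 1000-cell (-0.0337) and with shield (-0.169) were below 0. Most pairs thus shared part of the difference between replicates, which the main tests did not take into account. The CUC percent of Glu counts in gastrula libraries stayed called with the block (2.69 points, adjusted p = 0.0237 by the blocked exact permutation test). With a replicate block, 2, 1 and 1 Glu transcripts were called at 256-cell, 1000-cell and sphere against egg, and 2 at bud against shield. Over all 607 detected transcripts, the block called 11 higher and 17 lower at 256-cell, 6 and 7 at 1000-cell, and 14 and 7 at sphere. For bud against shield it called 71 higher and 5 lower over all. Glu-UUC was called at bud against egg with the block (-0.36) and was at 0.00 for shield against egg.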
